A study of Mus musculus with 10 samples.

Results

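The arrays described here are those of adult mouse ileum in which no transgene was induced. They are 4 of the 10 arrays of the series. They were chosen by their labels as the 2 arrays of rtTA control mice given doxycycline (rtTA +DOX) and the 2 arrays of TetON-Sox2 mice left without it (Sox2 -DOX). The mice were C57BL/6 and 6 to 8 weeks old, and RNA came from the ileum, the distal small intestine. Mice of rtTA +DOX carry the doxycycline-responsive activator rtTA but no TetOP-Sox2 transgene, and drank doxycycline at 2 mg/ml in water with 1% sucrose for 2 days. Mice of Sox2 -DOX carry the inducible Sox2 transgene and were left untreated. The other 6 arrays are of TetON-Sox2, TetON-Oct4 and double transgenic mice given doxycycline, and their values appear below only beside a result of the control arrays. The sources used here give neither the promoter that drives rtTA nor the sex of the mice. Whether both arrays of a group stem from different mice is not stated in the labels. The spread within the control groups, which enters each p-value, may therefore be technical. The 2 Oct4 +DOX arrays, which also enter the p-values over 10 arrays, differed from each other in the X-linked RNA Xist (-6.80 and 2.62).

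The groups differ in doxycycline, sucrose and genotype at once, and in the signal of several sex-linked genes given below. They also lie on different slides, which were read by different versions of the scanner software, and these differences cannot be told apart. Each value below, called a log2 level, is the log2 of a probe's processed signal minus the 75th percentile of its array. That percentile was a signal of 684.2 and 740.0 in Sox2 -DOX and of 1613 and 913.2 in rtTA +DOX, and between 64.9 and 70.5% of probes exceeded background by the scanner software's own test (called well above background below). No probe was saturated on them. In bulk tissue, fewer cells of a type and less RNA per cell cannot be told apart. The probes of Sox2 (-8.00 and -7.83 in Sox2 -DOX, -9.07 and -8.29 in rtTA +DOX), Pou5f1 and Nanog did not reach that level on the 4 arrays. The sources used here do not give whether the transgene holds the Sox2 probe's sequence.

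The ileal epithelium is renewed from stem cells at the base of crypts. Enterocytes digest and absorb nutrients and recover bile acids, goblet cells secrete mucus, Paneth cells secrete antimicrobial peptides, and lymphocytes and gut microbes set the level of many immune genes in the same tissue. Doxycycline is a tetracycline that acts on bacterial ribosomes and also on those of mitochondria.

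The baseline was led by genes of secretory cells, keratins, ribosomal proteins and energy supply. Of the 19045 genes tested, 64 stood among the 100 genes of highest probe signal on every one of the 4 arrays, and 12 of these encode ribosomal proteins and 6 are defensins. A rank of this kind is a rank of probe signal, since probes differ in how well they bind. The highest was Zg16, a lectin of goblet cell mucus, with log2 levels of 8.61 and 8.61 in Sox2 -DOX and 7.76 and 8.60 in rtTA +DOX. Krt8, a keratin of simple epithelia, stood at 8.58, 8.63, 7.67 and 8.40 on the same arrays in the same order, and Krt19 at 7.82, 8.02, 7.17 and 7.81. The Paneth cell defensins Defa20, Defa3, Defa5 and Defa1 were among the 25 highest, Defa20 at 8.28, 8.34, 7.62 and 8.68. So were the bile acid exporter subunit Slc51a at 8.26, 8.13, 7.26 and 8.04 and the tight junction gene Cldn7 at 8.07, 7.85, 7.46 and 7.91. The mucus-associated Clca1, the disaccharidase Mgam, the respiratory chain subunit Cox6a1 and the adenine nucleotide carrier Slc25a5 also belonged to this set, with lowest percentiles over the 4 arrays of 99.81, 99.83, 99.92 and 99.82. Ptprz1, a receptor phosphatase best known from the brain, was there too at 8.26, 8.09, 7.01 and 7.95.

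These brightest genes had a lower log2 level on rtTA +DOX replicate 1 than on the other 3 arrays. The median over the 64 shared genes was 7.69 and 7.65 in Sox2 -DOX and 7.01 and 7.68 in rtTA +DOX. Their median log2 difference, rtTA +DOX minus Sox2 -DOX, was -0.31 with scaling to the 75th percentile and -0.03 with quantile normalization. A difference of this size in a very bright gene therefore changes with the scaling.

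Absorptive genes held the highest ranks among the cell types. The 33 measured genes of the enterocyte brush border had a median percentile of 96.3, against 50.1 for all genes tested, and 24 of them were in the top 10% on every one of the 4 arrays. Vil1, which bundles microvillar actin, stood at 7.84, 7.72, 6.95 and 7.66, and the sucrase-isomaltase gene Sis at 7.40, 6.78, 6.93 and 7.59. The 37 genes of the respiratory chain had a median percentile of 97.0 and the 26 genes of lipid absorption one of 90.3, led by Fabp2 at 99.8 and Mogat2 at 99.2. Of the ileal bile acid genes, the apical transporter Slc10a2 had a mean percentile of 96.5, the second exporter subunit Slc51b 97.6 and the bile acid receptor Nr1h4 95.1, whereas Fabp6 had 77.5 and the hormone gene Fgf15 66.3. The regulator Gata4, known from the proximal small intestine, was near the bottom at 9.49, and its relative Gata6 stood at 87.3. The intestinal regulators Klf4, Cdx2 and Isx had mean percentiles of 99.1, 98.3 and 95.8.

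Secretory, immune and stromal genes spanned the whole range. Goblet and Paneth cell genes each had a median percentile of 89.4, and Muc2, the main gel-forming mucin, stood at 6.46, 6.62, 6.41 and 6.39. Lyz1, the Paneth cell lysozyme, stood at 6.06, 6.65, 6.02 and 7.11. The 31 genes of the major histocompatibility complex (MHC) and antigen processing had a median percentile of 93.4. The hormone genes Sct, Pyy and Nts had mean percentiles of 98.7, 95.7 and 93.9, while the median of 27 enteroendocrine genes was 40.9. Stem cell genes had a median of 62.0, with Lgr5 at 57.4 and Olfm4 at 60.6, and the 24 T cell genes had 53.3. Smooth muscle genes reached 74.8, with Myl9 at 98.2 and Tagln at 97.0. Genes of the stomach and of squamous epithelium had the lowest median, 11.5. Of these, Krt4, Krt6a, Trp63, Ivl and Tff2 were well above background on neither array of either group, and Gkn1, Gkn2, Pgc and Atp4b were not tested because no group of the series had both arrays well above background. The 10 measured pancreas genes had a median of 23.3.

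**Figure D1:**
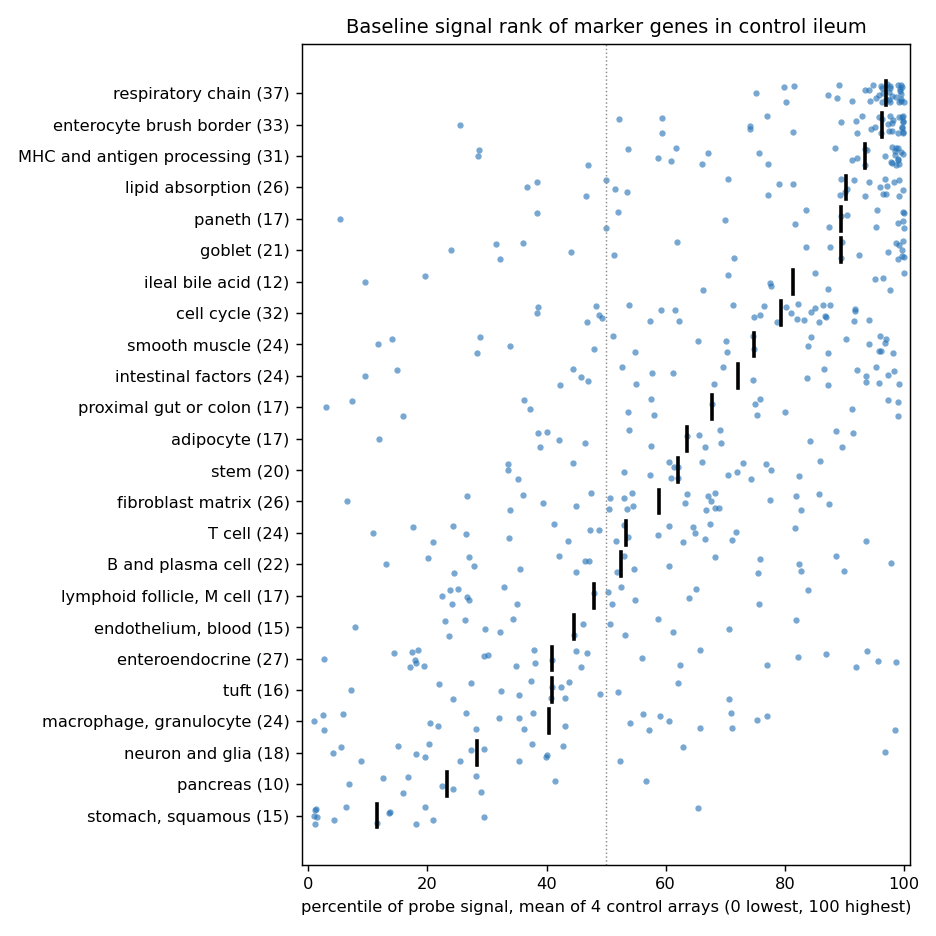
Each point is the percentile of a gene's probe signal among 19045 genes, as the mean of the 4 control arrays, and each black bar is the median of a gene list, with the number of genes in brackets. Respiratory chain (97.0) and brush border genes (96.3) rank highest, and stomach and squamous genes (11.5) lowest.

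The control groups were alike over most genes. Of the genes tested, 17166 (90.1%) were well above background on all 4 arrays, and 74.1% of these varied by less than 2-fold and 96.1% by less than 4-fold over the 4 arrays. Across genes, Pearson's r was 0.984 between the arrays of Sox2 -DOX, 0.983 between those of rtTA +DOX and 0.972 to 0.978 between groups, where genes are not independent replicates. The median absolute log2 difference was 0.27 and 0.35 within the groups and 0.33 to 0.41 between them.

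The test of the difference, in which limma shared 1 estimate of spread over all 10 arrays, called no gene. The percentage called at an adjusted p under 0.05 was 0 and the smallest adjusted p was 0.102. At an unadjusted p under 0.05, 344 genes (1.81%) were higher and 724 (3.8%) lower in rtTA +DOX. With limma on the 4 control arrays alone, 13 genes passed (0.0683%), 7 higher (0.0368%) and 6 lower (0.0315%). The median standard error of a log2 difference was 0.39. Each standard error (SE) here and below is that of the 10-array fit, so it also draws on the spread within the groups with induced transgenes. The n beside it counts only the control arrays compared. The groups did not overlap for 8232 genes (43.2%), 3916 higher (20.6%) and 4316 lower (22.7%) in rtTA +DOX, and of these 493 (2.59%) and 804 (4.22%) differed by more than 2-fold as well. The counts of members given below are to be read against these shares. Because no gene passed the 10-array test, values are given without calling them changes.

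**Figure D2:**
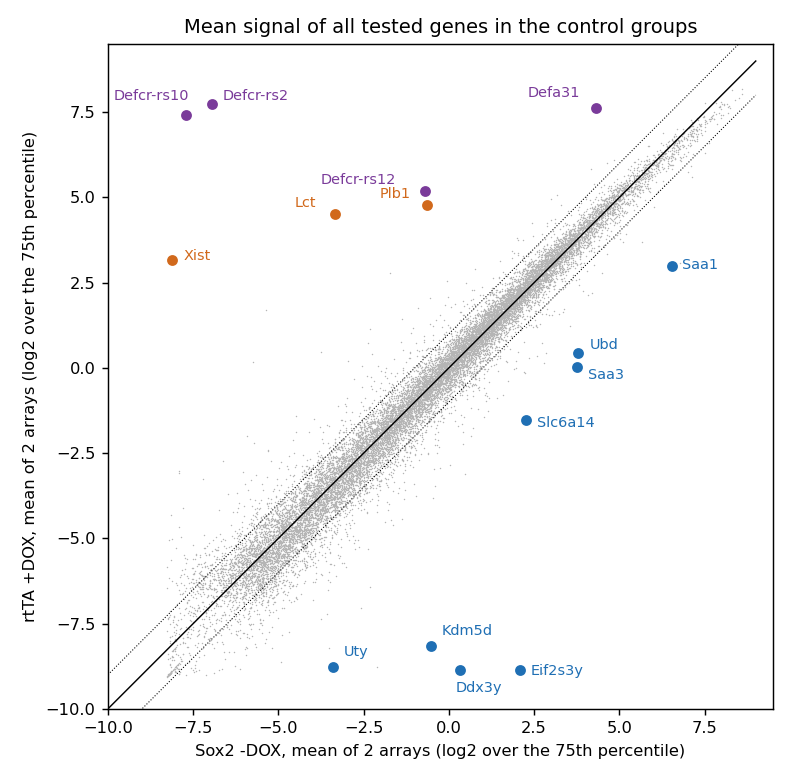
Each grey point is a gene, with its mean log2 level over the 2 arrays of Sox2 -DOX on the horizontal axis and of rtTA +DOX on the vertical axis, and dotted lines mark a 2-fold difference. Most genes lie near the line of equality, while sex-linked, defensin-related, brush border and acute-phase genes named on the plot lie far from it.

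Several sex-linked genes separated the control groups. Xist, the RNA coating the inactive X chromosome, stood at -8.18 and -8.05 in Sox2 -DOX, not well above background, and at 3.12 and 3.21 in rtTA +DOX. The level in rtTA +DOX was at least 557-fold higher (limma adjusted p = 0.452 over 10 arrays and 0.000618 over the 4). Its probe lies on chromosome X, 99666300 to 99666359 (NCBI36/mm8), and all 4 probes of Xist gave a higher value. Normexp correction was run with an added offset of 50, which raises dim signals. With it and quantile normalization, the log2 difference was 6.16 in place of 11.28, below the log2 of that bound (9.12). Quantile normalization alone gave 11.50. Tsix, its antisense partner, stood at -8.05 and -7.78 against -3.30 and -2.87.

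Genes of the Y chromosome went the other way. Eif2s3y, a translation initiation factor subunit, stood at 2.06 and 2.10 in Sox2 -DOX and at -9.23 and -8.49 in rtTA +DOX, not well above background there, and was at least 450.5-fold lower (limma adjusted p = 0.452 over 10 arrays and 0.00122 over the 4). The RNA helicase Ddx3y stood at 0.26 and 0.37 against -9.22 and -8.52, the histone demethylase Kdm5d at -0.48 and -0.59 against -8.37 and -7.95, and Uty at -3.18 and -3.65 against -9.16 and -8.37. With normexp correction and quantile normalization the log2 difference of Eif2s3y was -5.25 in place of -10.94. The Y-linked transcripts AK007945 (3.11 and 2.36 against -9.30 and -8.59) and AK053080 (-2.11 and -2.08 against -9.15 and -8.39) showed the same separation. All of these 6 passed the 4-array test, with adjusted p from 0.00122 to 0.0253. The X-linked partners differed little, with log2 differences of 0.24 for Eif2s3x, 0.38 for Ddx3x, 0.47 for Kdm5c and 0.16 for Kdm6a. Zfy1, also on the Y chromosome, was well above background on all 4 arrays and gave -0.32, and Zfy2 gave -0.81. Xist was thus well above background only in rtTA +DOX of the control groups, and Eif2s3y, Ddx3y, Kdm5d and Uty only in Sox2 -DOX. In the Oct4 +DOX group the 2 arrays differed from each other in the same genes (Xist at -6.80 and 2.62), which widens the spread that the 10-array test uses for them. Sex-linked pattern, slide, treatment and genotype cannot be told apart in the results that follow.

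A few defensin-related transcripts separated the control groups as sharply, while most probes of other alpha-defensins differed less. Alpha-defensins are peptides that Paneth cells release against bacteria, and in mice they are encoded by many near-identical genes. Probes can bind transcripts of several members, so the names below are uncertain. The probes of Defcr-rs12 and Defa31, which both read higher in rtTA +DOX, are shown with those of Defa3 and Defa5, which were bright in both groups. Sequences are the 60-base probes of the deposited files, aligned without gaps to that of Defcr-rs12, with capitals where an aligned base differs from it.
Defcr-rs12: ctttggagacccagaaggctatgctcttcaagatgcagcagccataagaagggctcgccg
Defa31: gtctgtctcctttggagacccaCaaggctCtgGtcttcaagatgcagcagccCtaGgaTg
Defa3: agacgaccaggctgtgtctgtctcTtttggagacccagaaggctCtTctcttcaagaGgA
Defa5: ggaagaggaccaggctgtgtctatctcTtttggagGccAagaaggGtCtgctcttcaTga
Over the aligned stretch, 45 of 51 bases of the Defa31 probe, 31 of 36 of the Defa3 probe and 27 of 33 of the Defa5 probe were the same as in that of Defcr-rs12.

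Defcr-rs12 stood at -0.87 and -0.52 in Sox2 -DOX and at 4.69 and 5.68 in rtTA +DOX, a log2 difference of 5.88 ± 1.46 (SE, n = 2 against 2; limma adjusted p = 0.478 over 10 arrays and 0.0253 over the 4). Defa31 stood at 4.10 and 4.51 against 7.18 and 8.07, a difference of 3.31 (limma adjusted p = 0.527). Defcr-rs10 stood at -8.02 and -7.43, not well above background, against 6.92 and 7.93, at least 10680.0-fold higher (limma adjusted p = 0.478 over 10 arrays and 0.00122 over the 4). Defcr-rs2 stood at -8.08 and -5.82 against 7.24 and 8.25, at least 12789-fold higher (limma adjusted p = 0.523 and 0.0106), and both of its probes gave a higher value. Over alternative settings of the processing and of the arrays fitted, the log2 difference was as low as 10.46 for Defcr-rs10, in place of 15.15. For Defcr-rs2 it was as low as 10.88, in place of 14.70, so both bounds hold on the main scale only. The groups did not overlap for any of these 4 transcripts. By contrast Defa20 gave a log2 difference of -0.16, Defa5 -0.28, Defa3 -0.40, Defa1 -0.29 and Defa22 0.19, each smaller than its standard error. Defa21 and Defa23 were lower in rtTA +DOX without overlap, by -0.57 ± 0.61 and -0.70 ± 0.48 (SE). The value of Defa3 is that of its brighter probe, and its other probe read 5.73 and 5.90 against 6.25 and 7.31, a difference of 0.96 in the opposite direction and without overlap.

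On the other arrays, which also carry induced transgenes, Defcr-rs10 read -8.31 and 7.26 in Sox2 +DOX, 6.79 and 8.30 in Sox2xOct4 +DOX and 7.60 and 7.93 in Oct4 +DOX. It was thus low on 1 of these 6 arrays. Defcr-rs12 gave the same order, -0.84 and 4.46 in Sox2 +DOX, 3.65 and 5.93 in Sox2xOct4 +DOX and 5.11 and 5.33 in Oct4 +DOX.

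**Figure D3:**
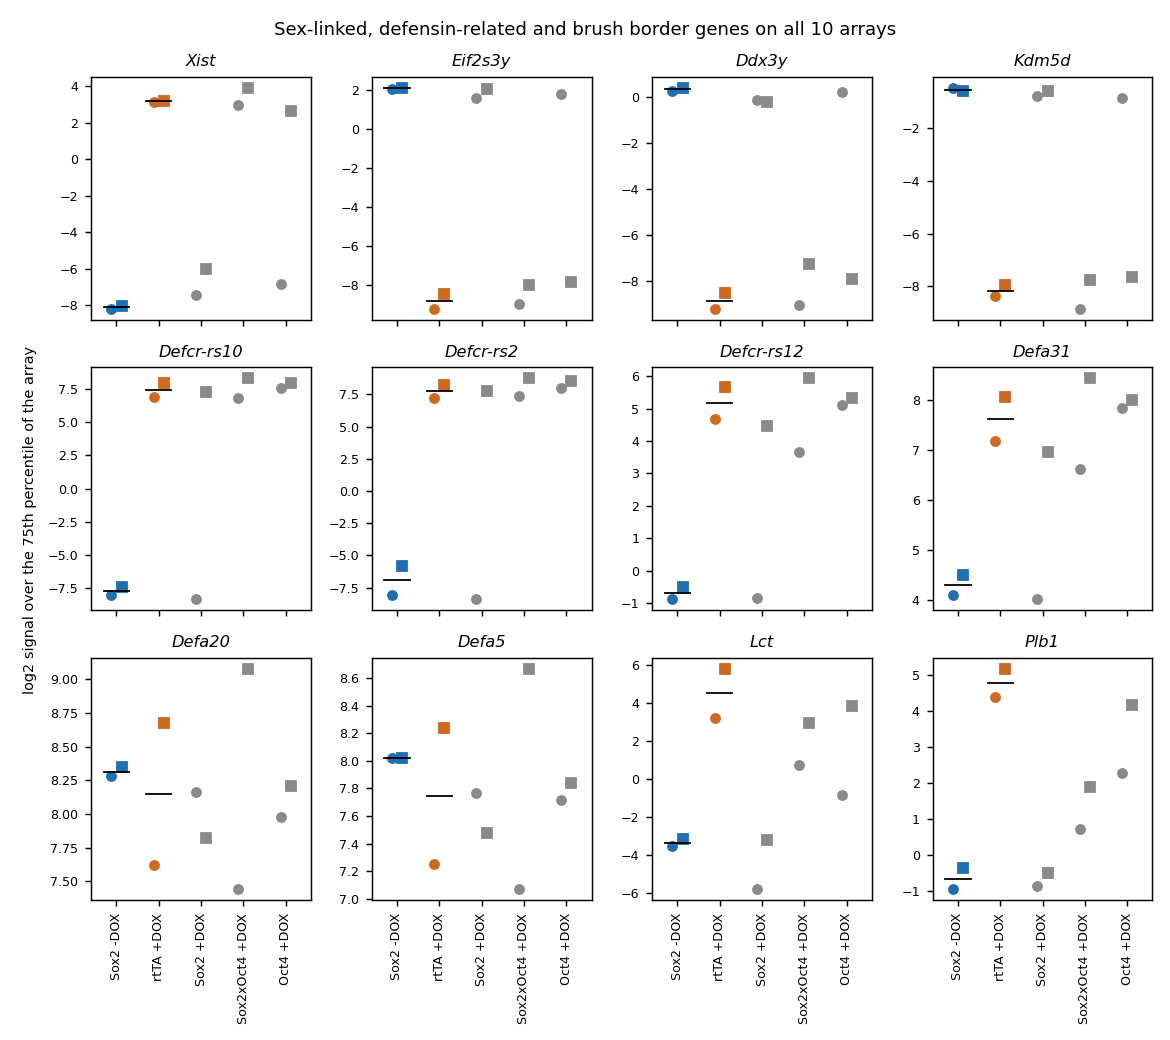
Each panel gives the log2 level of 1 gene on all 10 arrays, with circles for replicate 1, squares for replicate 2 and a black line at the mean of each control group (blue, Sox2 -DOX; orange, rtTA +DOX; grey, other groups). Xist and the Y-linked genes split the control groups, as do Defcr-rs10, Defcr-rs2, Defcr-rs12, Lct and Plb1, while Defa20 and Defa5 do not (the vertical axes differ).

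Single genes of the brush border and of lipid and foreign compound metabolism were among the other large differences toward higher values in rtTA +DOX. Lct, lactase, had the largest among genes well above background on all 4 arrays, at -3.53 and -3.16 in Sox2 -DOX and 3.21 and 5.79 in rtTA +DOX (log2 difference 7.85 ± 1.57, SE, n = 2 against 2; limma adjusted p = 0.445 over 10 arrays and 0.142 over the 4). Its mean percentile was 59.4, with 25.5 and 26.5 in Sox2 -DOX and 87.7 and 97.8 in rtTA +DOX. Plb1, a brush border phospholipase, stood at -0.95 and -0.36 against 4.39 and 5.17 (5.44 ± 0.65; limma adjusted p = 0.144 over 10 arrays and 0.026 over the 4), and all 3 of its probes gave a higher value. The probe of LOC665270 lies on the same stretch of chromosome 5 (32605040 to 32605634, NCBI36/mm8, 35.6 kb before this Plb1 probe). It falls between other probes of Plb1, which start at 32569855 and 32642141, so the names may not stand for separate genes. LOC665270 stood at -5.83 and -5.66, not well above background, against 0.70 and -0.35, 60.7-fold higher (limma adjusted p = 0.102 and 0.0253). The dim values exceeded the lowest signal called well above background on their arrays, so this fold is the measured difference and not a bound. Its log2 difference of 5.92 was as low as 3.09 over alternative settings. Of the 6 tested gene names with a probe within 300 kb of that of Plb1, the others were Fosl2 (0.23), E230008O15Rik (-0.82), Ppp1cb (-0.17) and AK082417 (-1.03). Only Plb1 and LOC665270, whose probes lie interspersed, stood far higher.

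Enpp7, which cleaves sphingomyelin in the gut lumen, stood at -1.66 and -2.96 against 1.26 and 0.99. Ugt2a3, a glucuronosyltransferase, stood at -2.63 and -3.27 against -0.51 and 0.91, and the acyl-CoA thioesterase gene Acot12 at -4.89 and -4.09 against -2.43 and -0.38. Fam151a stood at -1.95 and -1.51 against 1.98 and 3.60. These 4 had adjusted p from 0.452 to 0.673. A transcription factor gene, Zbtb46, gave 7.07 on 1 probe (-5.52 and -5.19 against 0.75 and 2.67), but another probe that was well above background on all 4 arrays read -5.70 and -3.92 against -4.29 and -4.36, which overlap. Cyp1a1, an enzyme of foreign compound breakdown, differed within its groups as well, at -0.60 and -4.16 against 0.07 and 1.39.

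The other arrays, with induced transgenes, spanned a wide range in these genes. Lct read -5.77 and -3.20 in Sox2 +DOX, 0.76 and 2.93 in Sox2xOct4 +DOX and -0.84 and 3.82 in Oct4 +DOX. Plb1 read -0.87 and -0.51 in Sox2 +DOX, close to Sox2 -DOX, and 0.73 to 4.17 on the Sox2xOct4 +DOX and Oct4 +DOX arrays.

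The rest of the brush border list did not share the pattern of Lct. Of its 33 genes, 3 were higher and 6 lower in rtTA +DOX without overlap, with a median log2 difference of -0.21, against 0.01 over all genes. Sis differed by 0.17, the peptidase Anpep by -0.46 and the glucose carrier Slc5a1 by 0.12. In the sugar and fructose list the median over 32 genes was 0.06, and 8 were higher and 4 lower without overlap. The higher ones included the relatives of glucose carriers Slc5a4b (-0.28 and -0.80 against 1.69 and 2.43) and Slc5a4a (1.92 and 1.79 against 3.44 and 3.41). The fructose carrier Slc2a5 and ketohexokinase Khk gave 0.11 and 0.48, and hexokinase Hk2 gave -1.03. Lipid absorption genes had a median of 0.34, with 8 of 26 higher and 0 lower without overlap, among them the regulator Creb3l3, with a log2 difference of 0.90 ± 0.37 (SE). In the xenobiotic list 14 of 40 were higher and 3 lower without overlap (median 0.26). Cyp2b10 had the smallest p of them, at -8.17 and -7.44, not well above background, against -5.09 and -3.11, at least 3.62-fold higher (limma adjusted p = 0.665). That bound holds on the main scale only, since its log2 difference of 3.70 was as low as 0.75 over alternative settings.

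Acute-phase genes were among those with the largest differences toward lower values. Serum amyloid A genes encode secreted proteins that are induced in gut epithelium by bacteria and cytokines. Saa1 stood at 6.19 and 6.87 in Sox2 -DOX and at 2.07 and 3.92 in rtTA +DOX, 11.6-fold lower (log2 difference -3.54 ± 0.80, SE, n = 2 against 2; limma adjusted p = 0.452). Saa2 stood at 6.46 and 7.08 against 2.16 and 3.99 (limma adjusted p = 0.452), and Saa3 at 3.40 and 4.13 against -0.89 and 0.96 (limma adjusted p = 0.452). The groups did not overlap for any of the 3. Saa1 and Saa2 are near-identical copies, and their probes may not tell them apart.

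The 250 bases before the start of these genes are shown with those of Ubd, since the 4 genes differed in the same direction. They are RefSeq sequences of GRCm38.p6, read on the strand of the gene. Capitals mark matches on either strand to the C/EBP motif TTGCNNAA or to the NF-kB motif, which 9.56% and 1.41% of 32851 promoters of this length hold.
Saa1, chr7:46742981-46743230, minus strand: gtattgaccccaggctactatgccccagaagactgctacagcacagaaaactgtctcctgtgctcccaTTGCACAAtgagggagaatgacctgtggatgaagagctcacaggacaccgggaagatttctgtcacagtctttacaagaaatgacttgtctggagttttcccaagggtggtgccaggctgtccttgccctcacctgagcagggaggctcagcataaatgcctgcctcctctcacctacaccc
Saa2, chr7:46751583-46751832, plus strand: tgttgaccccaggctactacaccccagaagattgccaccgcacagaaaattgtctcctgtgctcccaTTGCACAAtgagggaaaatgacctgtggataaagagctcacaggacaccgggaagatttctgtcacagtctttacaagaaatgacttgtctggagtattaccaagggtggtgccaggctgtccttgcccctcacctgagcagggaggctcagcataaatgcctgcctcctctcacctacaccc
Saa3, chr7:46715677-46715926, minus strand: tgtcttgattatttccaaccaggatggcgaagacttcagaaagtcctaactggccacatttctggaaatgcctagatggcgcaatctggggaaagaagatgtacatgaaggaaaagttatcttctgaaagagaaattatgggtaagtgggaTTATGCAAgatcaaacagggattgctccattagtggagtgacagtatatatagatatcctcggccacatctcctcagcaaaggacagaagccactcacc
Ubd, chr17:37193642-37193891, plus strand: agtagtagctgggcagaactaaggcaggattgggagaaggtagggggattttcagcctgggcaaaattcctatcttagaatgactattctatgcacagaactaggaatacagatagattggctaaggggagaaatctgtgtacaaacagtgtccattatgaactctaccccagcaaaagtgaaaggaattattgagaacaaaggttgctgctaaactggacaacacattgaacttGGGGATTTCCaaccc
The C/EBP match begins 182 bases before the start of Saa1, 183 before that of Saa2 and 99 before that of Saa3. The NF-kB match of Ubd begins 15 bases before its start. Saa1 and Saa2 differ by 13 single-base changes, gains or losses over this stretch, against 130 between Saa1 and Saa3. The GAS motif (TTCNNNGAA, in 7.02% of promoters) had no match in the 4. The same stretch of Cxcl9, an interferon-responsive chemokine, held no full match to any of the motifs. It does hold the letters GGGATTTCC, with which the longer NF-kB match of Ubd ends. A match is a description of the letters and not a test of binding.

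Over the 31 genes of the microbe-responsive and antimicrobial list, 14 were lower and 4 higher in rtTA +DOX without overlap, and the median log2 difference was -0.79. At an unadjusted p under 0.05, 9 were lower and 0 higher. Reg3g, a lectin that kills Gram-positive bacteria, stood at 7.53 and 7.51 against 5.99 and 6.62, and its relative Reg3b at 7.51 and 7.54 against 6.53 and 7.34. Both are among the brightest genes, and the difference of Reg3g was -1.22 with the 75th percentile and -1.10 with quantile normalization, while that of Reg3b was -0.58 and -0.36. The log2 difference of the cytokine gene Il1b was -1.19. Tnf stood at -3.63 and -3.18 against -4.54 and -4.32, and Il22, the cytokine that induces Reg3 genes, at -3.55 and -3.94 against -5.94 and -8.76, well above background on 1 of these last 2 arrays. Others did not follow, such as Pigr, the carrier of secretory antibodies (-0.04), Reg3a (0.38) and the Paneth cell ribonuclease gene Ang4 (2.26 and 2.63 against 3.55 and 4.96).

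Interferon-responsive genes were mostly lower in rtTA +DOX, 28 lower and 6 higher. Of 34, 18 were lower and 2 higher without overlap, with a median of -0.37, and 10 were lower and 0 higher at an unadjusted p under 0.05. The nucleic acid sensor Zbp1 stood at 2.81 and 2.88 against 0.90 and -0.01 (limma adjusted p = 0.426). Cxcl9 stood at -0.12 and 0.91 against -1.26 and -2.04, the GTPase gene Igtp at 3.57 and 4.30 against 3.01 and 1.48, and the transcription factor Irf1 at 5.96 and 6.24 against 5.31 and 4.94. Antiviral genes of the same list were closer together, with differences of 0.02 for Usp18, -0.11 for Irf7, -0.24 for Rsad2 and 0.57 for Isg15, a contrast seen after the values were known and not tested. Ifng itself stood at -2.43 and -1.32 against -3.82 and -5.22 (limma adjusted p = 0.669). Ubd, a ubiquitin-like modifier, stood at 4.21 and 3.39 against 1.23 and -0.36 (limma adjusted p = 0.445), and Cd274, which encodes the checkpoint ligand PD-L1, at 0.16 and 1.27 against -1.56 and -1.96 (limma adjusted p = 0.445).

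Genes of antigen presentation and T cells were mostly lower as well. Of 31 MHC and antigen processing genes, 20 were lower and 0 higher in rtTA +DOX without overlap, with a median of -0.62. At an unadjusted p under 0.05, 11 were lower and 0 higher. Ciita, the master regulator of MHC class II, stood at 1.39 and 1.63 against 0.57 and 0.15. The class II chaperone Cd74 stood at 7.19 and 7.08 against 6.09 and 5.12, H2-DMb1 at 5.26 and 4.96 against 4.18 and 3.21, and B2m, the light chain of class I, at 6.46 and 6.17 against 5.59 and 5.12. The adjusted p of these 4 ran from 0.478 to 0.873. Of 24 T cell genes, 16 were lower and 1 higher without overlap (median -0.73). The adaptor Lat stood at -0.26 and -0.09 against -1.39 and -1.54, and the granzyme gene Gzmb at 2.69 and 2.46 against 1.49 and -0.80. The receptor chain gene Cd8b1 differed by -0.12 and Cd3g by -0.33. The summed level of the 24 T cell genes, on the log2 scale, was 6.29 and 5.97 in Sox2 -DOX and 5.71 and 4.49 in rtTA +DOX, so it moved with the interferon and MHC lists, and its part in those results was not tested. B and plasma cell genes had a median of -0.38, with 8 of 22 lower and 1 higher without overlap, and summed levels of 6.52 and 7.22 against 6.61 and 6.51. Adipocyte genes had a median of -0.64, with 9 of 17 lower and 2 higher without overlap, and summed levels of 5.93 and 6.16 against 5.41 and 6.08. The first pair of summed levels overlapped between groups and so did the second, and their part in the results was not tested.

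On the other arrays, these genes did not share 1 order. Saa1 read 2.02 and 2.76 in Sox2 +DOX, 0.29 and 2.09 in Sox2xOct4 +DOX, and 7.29 and 5.91 in Oct4 +DOX. Ciita and Cd74 read lower in all 3 of those groups than in either control group, from -2.29 to -0.93 and from 3.23 to 4.36. Gzmb lay between -2.76 and -0.42 there. Sox2 +DOX shares genotype and slide with Sox2 -DOX but also carries an induced Sox2, so its values do not show the drug alone, and the other 2 groups carry induced transgenes and lie on other slides than Sox2 -DOX.

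**Figure D4:**
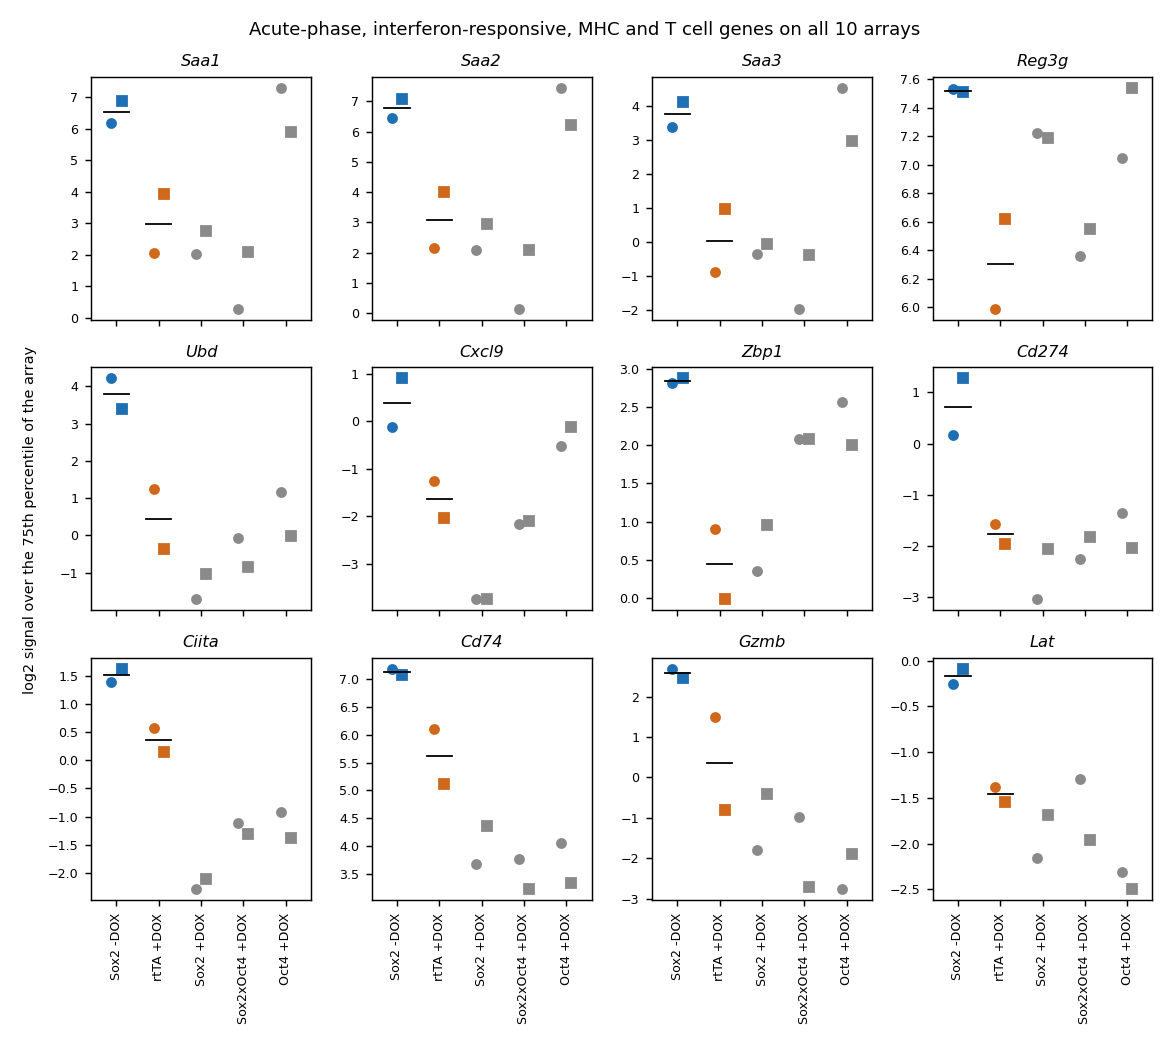
Each panel gives the log2 level of 1 gene on all 10 arrays, with circles for replicate 1, squares for replicate 2 and a black line at the mean of each control group (blue, Sox2 -DOX; orange, rtTA +DOX; grey, other groups). Both Sox2 -DOX arrays lie above both rtTA +DOX arrays in every panel, and the Oct4 +DOX arrays are high for Saa1, Saa2 and Saa3 (the vertical axes differ).

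Other single genes with large differences toward lower values were the amino acid transporter Slc6a14 (2.18 and 2.35 against -3.13 and 0.09), the fatty acid hydroxylase Fa2h (-0.15 and -0.78 against -4.45 and -3.19) and the cytokine receptor gene Lifr (-0.86 and 0.05 against -4.62 and -2.33). Of 5 probes of Lifr, 3 gave a higher and 2 a lower value. St6galnac1, a sialyltransferase of mucin, stood at -0.25 and -0.55 against -2.44 and -2.06 and had the smallest p of the goblet cell list (limma adjusted p = 0.452). The remaining goblet cell genes differed less, with Muc2 at -0.14 and Tff3 at -0.25.

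Enteroendocrine, muscle and nerve genes tended to the other side. Of 27 enteroendocrine genes, 11 were higher and 5 lower in rtTA +DOX without overlap (median 0.38). The granule proteins Chgb and Chga stood at 3.74 and 2.62 against 5.03 and 5.11, and at 2.72 and 2.20 against 3.65 and 4.11, and Tph1, which makes serotonin, at -1.71 and -2.26 against -0.43 and -0.46. Their adjusted p were 0.452, 0.478 and 0.516. The brighter hormone genes Pyy, Nts and Sct differed in the opposite direction, by -0.440, -0.201 and -0.187, of which only Pyy did not overlap. The summed level of the enteroendocrine genes overlapped, with 7.558 in the higher Sox2 -DOX array and 7.403 in the lower rtTA +DOX array. Smooth muscle genes had a median of 0.53 with 10 of 24 higher without overlap, fibroblast and matrix genes 0.50 with 8 of 26, and neuron and glia genes 0.46 with 11 of 18. Myh11, smooth muscle myosin, stood at 2.80 and 2.56 against 3.58 and 3.80, Fbln1 at 2.04 and 1.64 against 3.22 and 3.25, and the neuropeptide gene Vip at -2.19 and -2.48 against -1.29 and -1.07. The summed level of the smooth muscle genes overlapped between the groups, with 8.28 and 7.83 in Sox2 -DOX and 8.01 and 9.004 in rtTA +DOX. That of the neuron and glia genes overlapped as well, at 5.68 and 5.27 against 5.38 and 5.19. That of the fibroblast and matrix genes did not overlap, at 5.22 and 5.84 against 5.86 and 6.29. The part of these cells in the other results was not tested.

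Lists tied to mitochondria and cell division had medians near that of all genes. The 46 mitochondrial ribosome genes had a median log2 difference of 0.09, with 5 higher and 2 lower without overlap, the 37 respiratory chain genes -0.04 with 3 and 2, the 29 mitochondrial stress genes 0.06 with 3 and 3, and the 32 cell cycle genes -0.02 with 0 and 2. None of the first 3 lists had a gene at an unadjusted p under 0.05, and the signs of these 4 medians changed with the processing. The stress genes Ddit3 and Nupr1 gave 0.41 ± 0.47 and 0.72 ± 0.53 (SE). Stem cell genes had a median of 0.18, with Lgr5 at -0.08 and Ascl2 at 1.20 (-2.88 and -3.29 against -1.89 and -1.90, limma adjusted p = 0.738).

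**Figure D5:**
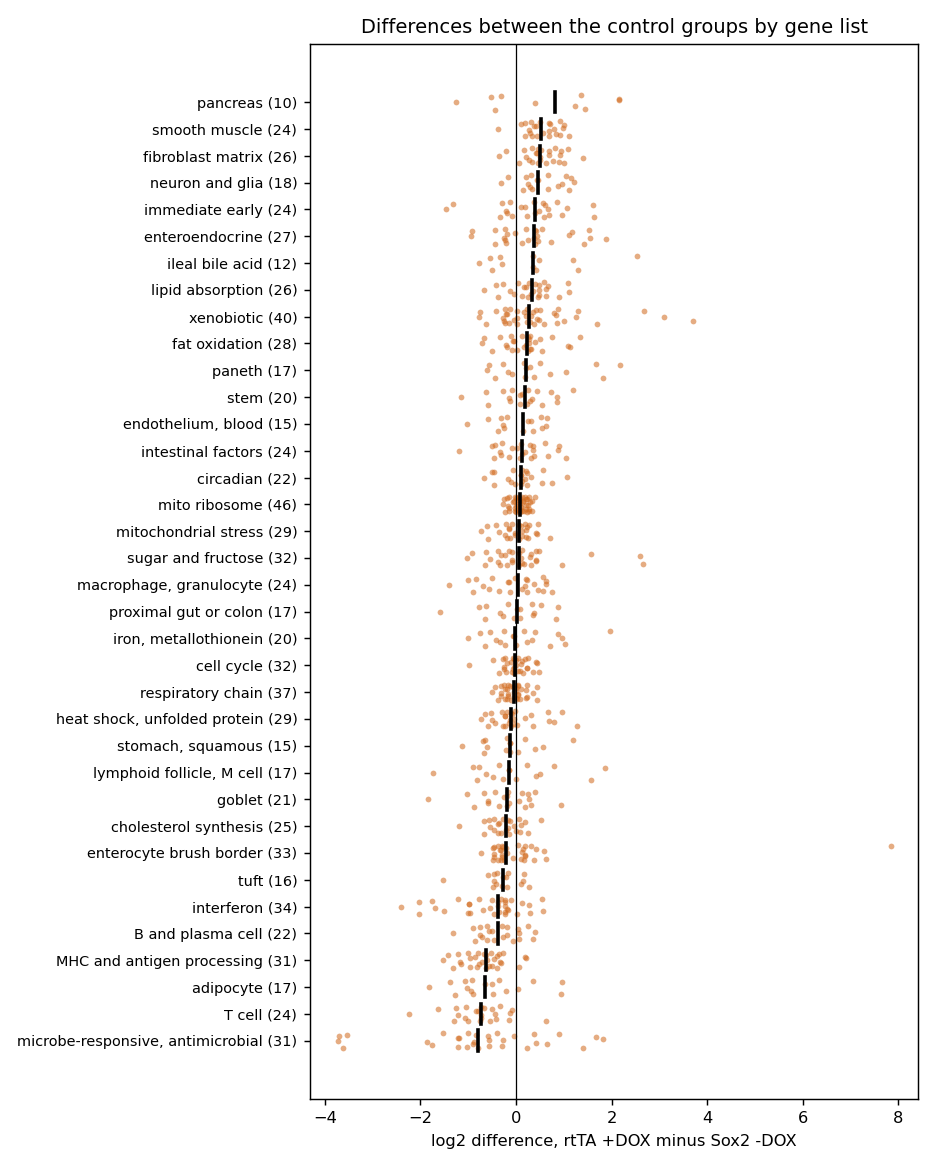
Each point is the log2 difference of a gene, rtTA +DOX minus Sox2 -DOX, and each black bar the median of a gene list, with the number of genes in brackets (sex-linked genes are left out). Medians run from -0.79 for microbe-responsive genes to 0.81 for 10 pancreas genes, and the point far right is Lct.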

How the data were processed

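RNA of 10 ileum samples, 5 groups of 2, was measured on 1-colour Agilent arrays. The deposited scanner files hold an intensity for each spot, background-subtracted and processed by Agilent Feature Extraction, per the file headers; the submitters' processing notes name version 9.1, and the headers of the control arrays name other versions. Control and outlier-flagged spots were left out, each processed signal was put on the log2 scale minus the 75th percentile of its array, and repeated spots were averaged. Probes were kept where some group had both its arrays well above background, and a gene took the one brightest on average over the 10 arrays. limma 3.58.1 (R 4.3.3) fitted 1 mean per group over all 10 arrays, and p-values were adjusted by Benjamini-Hochberg over 19045 genes. Probe coordinates are NCBI36/mm8, from the files of rtTA +DOX. A bound ("at least") sets the mean of the bright group against the dim group's mean of, per array, the higher of the lowest signal among probes well above background and the dim probe's own, on the main scale. A bound holds on that scale only, and other processing can give a smaller difference. The groups were taken from the labels. The precision is limited by the number of arrays, 2 a group.

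The members and gene lists were chosen with earlier results of these data known. The genes named are the 25 with the highest lowest percentile, the sex-linked list, the 10 largest differences in each direction without overlap, the 5 largest bounds in each direction, and up to 4 of each list with the highest rank or the smallest p; others were added after their values were seen. The main fit did not pair samples by replicate number. The test was checked on simulated data. Alternatives were background correction, normalization, the filter on dim probes, the probe rule, the arrays fitted, a variance trend, a replicate block and leaving out each array.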

Additional observations from a re-analysis of the deposited data

How the results depend on the processing

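The count of 0 genes called over 10 arrays stayed 0 with quantile normalization, with normexp correction and quantile normalization together, with scaling to the median, without the filter on dim probes and with all probes kept, and 761 to 889 genes had an unadjusted p under 0.05 when 1 control array was left out, again with 0 called. It was 13 with only the 4 control arrays, 11 without the Oct4 group and 2 with a variance trend. With a replicate block it was 2, with a smallest adjusted p of 0.0284. The difference of replicate 1 minus replicate 2 across genes correlated between groups at r from -0.13 to 0.27. These values do not settle whether the numbers pair the samples. A slide block was not possible because each control group lies on 1 slide. Without the filter on dim probes, the groups did not overlap for 9877 genes lower in rtTA +DOX, and the median log2 difference of all genes was -0.15. The overlap counts were not recomputed with an array left out, since 1 array then stands for a group. Genes in the top 100 of every control array numbered 64 to 74 over the alternatives. Of 481 list medians under an alternative, 438 kept their sign. The causes were not tested.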
